A study of Mus musculus with 24 samples.

Results

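The genes described here are 8 genes of homeostatic astrocytes, the resting support cells of the brain, that code for transport, coupling and identity proteins. They were chosen by name: Slc1a2, Slc1a3, Aqp4, Gja1, Gjb6, Aldh1l1, Glul and Sox9. In the array annotation 7 of the 8 were matched to 13 of the 25697 probes, with 4 probes each for Slc1a2 and Aldh1l1 and 1 each for Slc1a3, Aqp4, Gja1, Glul and Sox9, and Gjb6, a partner connexin of Gja1, was not analysed here. Probes were kept where every one of the 4 mice of some group read over 16, which held for 11 of the 13 member probes and for 11901 of all probes. The other 2, for Slc1a2 (ILMN_3047516) and Aldh1l1 (ILMN_3027287), lay below 16 on all 24 arrays, between -2.80 and 7.71 and between -8.58 and 4.09, and have no usable level.

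Astrocytes clear the glutamate that neurons release. The transporters EAAT2 (Slc1a2, also called GLT-1) and EAAT1 (Slc1a3, GLAST) carry it into the cell, and glutamine synthetase (Glul) converts it to glutamine that is handed back to neurons. Aquaporin 4 (Aqp4) is the water channel of the astrocyte endfeet on blood vessels. Connexin 43 (Gja1) and connexin 30 (Gjb6) form the gap junctions that join astrocytes into a network. The cytosolic folate enzyme 10-formyltetrahydrofolate dehydrogenase (Aldh1l1) is a widely used marker of astrocytes, and Sox9 is a transcription factor of glial development that stays on in adult astrocytes.

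Hippocampal RNA of C57BL6 mice that received no treatment was hybridised to 24 BeadChip arrays, 1 mouse each, in 6 groups of 4: young, adult and old females (FY, FA and FO) and young, adult and old males (MY, MA and MO), aged 3, 12 and 24 months. All females were killed in diestrus, young and adult ones at that stage of their cycle and old ones in the lasting diestrus of reproductive senescence, so comparisons with FO carry the loss of cycling as well as age. Females had vaginal lavage every day for some weeks beforehand, and males were killed after a short acclimation without it, so handling and sex cannot be told apart in any comparison of the sexes. The tissue was the hippocampus with the dentate gyrus. The deposited intensities are background-subtracted and scaled to 1 mean on all arrays. They were set to at least 16 and put on a log2 scale, and all differences below are log2 differences from limma in 1 model over the 6 groups, with p-values adjusted over the 11901 kept probes.

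Of 22 astrocyte markers 18 were kept, the 7 measured members among them. Their summed linear intensity, in which bright genes weigh most, lay between 26997 and 30119 in FY, 27717 and 28477 in FA and 29365 and 31056 in FO. In males it lay between 26585 and 28064 in MY, 27690 and 30089 in MA and 28106 and 28270 in MO. All FO mice were above all FA and MO mice and all MO mice above all MY mice, while FO and FY overlapped. Microglial markers moved with age, with a summed intensity of 11 kept genes between 1796 and 2047 in FY and between 2819 and 4081 in FO. In males the rise was smaller, with sums between 1702 and 1972 in MY and between 2142 and 2782 in MO. Old males 1 and 3 stood apart from the other old males. In old male 1 the 5 kept choroid plexus markers summed to 17196, against 769 to 1040.4 in the other 3. The highest mice of FY (17731) and FA (19853) were above that level. By median these markers summed to 13922 in FY, 8290 in FA and 3413 in FO. Male medians were 9283 (young), 1422 (adult) and 956 (old). Young mice varied widely, from 1764 to 17731 in FY and from 2572 to 16882.5 among young males. The part of this signal in the old against young differences was not tested. In old male 3 the 6 kept neocortex markers summed to 3495 (1061 to 1176 in the other 3), while those of the pyramidal cells of CA1 and CA3 summed to 2099 (4313 to 5198) and the 3 of the dentate gyrus to 574 (1741 to 2956). Where leaving out either or both of them changed a call for old against young described below, the value without them is given too, as it is for many of the differences that moved without a change of call. In whole tissue a lower level could be fewer cells or less RNA per cell, and the 2 cannot be told apart here.

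No member probe passed the test in any of the 16 comparisons of age and sex, which made 176 tests with limma (lowest adjusted p = 0.131, for Aldh1l1). Of the 176 tests, 9 had an unadjusted p under 0.05, where all kept probes gave 7.22% over the same comparisons. The study's own procedure is an analysis of variance at an unadjusted threshold, with Newman-Keuls tests after it and a fold limit of 1.2. It was run here on the kept probes, in place of the study's filter on detection p-values. So run, it called 1 of its 99 member tests, the dim Slc1a2 probe in MO against MA. Whether the study's filter would have kept this probe was not tested. Over all kept probes the procedure called 1.23% in the same 9 comparisons, within a sex or within an age.

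The background of limma calls was low in these data, so a count of 0 among 11 probes is close to what the array gave as a whole. Between ages within a sex it was 0% for FA against FY, 0.714% for FO against FY and 0.361% for FO against FA, then 0% for MA against MY, 0.101% for MO against MY and 0% for MO against MA. Over both sexes it was 0.00840% for adult against young, 0.328% for old against adult and 1.27% for old against young. Between the sexes it was 0.0336% for FY against MY, 0.0504% for FA against MA, 0.176% for FO against MO and 0.336% over all ages, and 0% in each of the 3 comparisons of aging between the sexes. The intervals below say which differences the arrays could still hold.

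**Figure D1:**
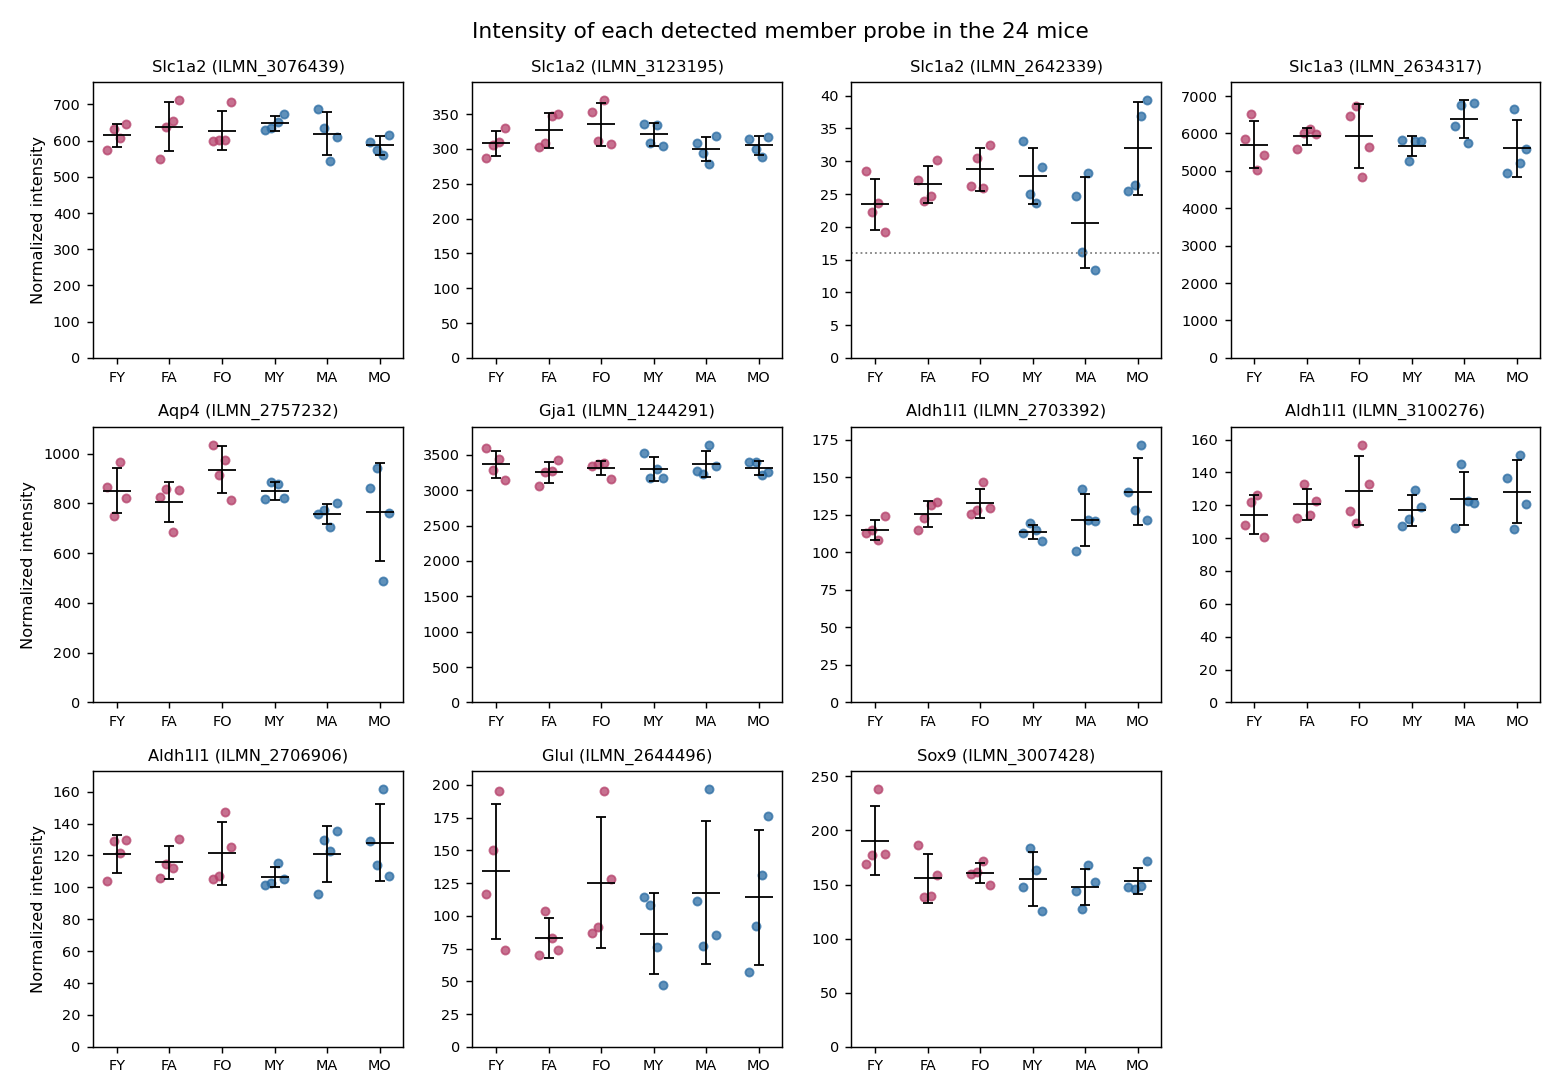
Normalized intensity (linear scale, from 0) of the 11 kept member probes in each mouse, by group; points are mice (females red, males blue), the bar is the group mean and the whiskers 1 SD (n = 4), and the dotted line for the dim Slc1a2 probe is the floor of 16. Gja1 lies between 3063 and 3641 in all 24 mice, Glul between 47.4 and 197, and old male 3 is the lowest mouse for Aqp4 (489) and the highest for 2 Aldh1l1 probes (171 and 161).

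Slc1a3 differed little between the ages. Its probe (ILMN_2634317) read 5851, 6512, 5018 and 5437 in FY, 5583, 6026, 6108 and 5977 in FA and 6477, 6738, 4842 and 5649.8 in FO. In males it read 5830.1, 5270.1, 5795 and 5805 in MY, 6194, 6771, 5754 and 6808 in MA and 4948, 6655, 5201 and 5599 in MO. The old groups spread over the whole range of the young ones, with FO replicate 3 the lowest mouse of all at 4842 and MA holding the highest at 6808. The mean went from 5704 ± 637 in FY to 5927 ± 859 in FO (SD, n = 4), a log2 difference of 0.05 (95% interval -0.16 to 0.26, adjusted p = 0.999) by limma. In males it was -0.027 (95% interval -0.23 to 0.18, adjusted p = 0.944). Over both sexes the interval of the old against young difference ran from -0.13 to 0.16, or between -8.84% and 11.5%, so a loss of this transporter's mRNA larger than that lies outside the interval.

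Slc1a2 was measured by 3 kept probes, which the annotation gives to 3 RefSeq transcripts of the gene, and they did not move as 1. The first probe (ILMN_3076439) read 574, 632, 607 and 645 in FY, 549, 638, 654 and 711 in FA and 598, 601, 603 and 708 in FO. It read 628, 636, 652 and 675 in MY, 686, 635, 544 and 609 in MA and 597, 574, 559.5 and 616 in MO. All 4 MO values lay below all 4 MY values, while FO and FY overlapped, and the MO against MY difference was -0.14 (95% interval -0.31 to 0.022, adjusted p = 0.513) by limma, against 0.028 (95% interval -0.14 to 0.19, adjusted p = 0.999) for FO against FY. Non-overlap of MO and MY in either direction held for 5.79% of kept probes and for 2 of the 11 member probes. The second probe (ILMN_3123195), from 278 in MA to 369.6 in FO, had differences of 0.12 (95% interval -0.039 to 0.28, adjusted p = 0.885) in females and -0.072 (95% interval -0.23 to 0.087, adjusted p = 0.74) in males. For both of these probes the female value was the higher of the 2, and the test of the sex difference in aging gave 0.17 (95% interval -0.063 to 0.41, adjusted p = 0.851) and 0.19 (95% interval -0.033 to 0.42, adjusted p = 0.851), so it was not resolved from 0.

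The third Slc1a2 probe (ILMN_2642339) was close to the floor. It read 24.7, 16.1, 28.2 and 13.5 in MA, with 1 mouse under 16, 25.4, 26.4, 36.8 and 39.3 in MO and 33.2, 25.0, 23.7 and 29.2 in MY, and 19.2 to 32.4 in females. MA and MO overlapped. Its MO against MA difference of 0.61 (95% interval 0.22 to 1.00, adjusted p = 0.897) by limma had an unadjusted p of 0.0037. It is the 1 member call of the study's procedure as run here. Neither of the other Slc1a2 probes moved with it: over the 24 arrays its r was -0.10 with ILMN_3076439 and -0.04 with ILMN_3123195, and between the other 2 it was 0.39 (a description, since probes on 1 array share its RNA).

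Glul, the enzyme at the end of the uptake path, varied more between mice than between groups. Its probe (ILMN_2644496) read 117, 150.3, 196 and 73.8 in FY, 69.8, 104, 83.4 and 74.2 in FA and 86.6, 91.8, 195 and 128 in FO. In males it read 115, 108, 76.0 and 47.4 in MY, 112, 77.3, 197 and 85.2 in MA and 57.2, 92.0, 131 and 177 in MO. The mice at 196 in FY, 195 in FO and 197 in MA were all replicate 3. Whether these arrays share a batch cannot be read from the labels. Every group overlapped every neighbour in the order of means (FY, FO, MA, MO, MY, FA). Within FY, FO, MY, MA and MO the highest mouse read 2.25 to 3.09 times the lowest, and within FA 1.49 times. The highest group mean, 134 ± 51.6 in FY, was 1.62 times the lowest, 82.8 ± 15.2 in FA (SD, n = 4), and FA against FY gave -0.62 (95% interval -1.37 to 0.12, adjusted p = 0.544) by limma. From young to old the differences were -0.089 (95% interval -0.83 to 0.66, adjusted p = 0.999) in females and 0.36 (95% interval -0.38 to 1.11, adjusted p = 0.716) in males, intervals that still hold a fall of 43.9% and a rise of 116%. Without old male 1, the lowest MO mouse at 57.2, the male difference was 0.66 (adjusted p = 0.419).

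Aqp4, the endfoot water channel, was the member with the largest difference between old females and old males. Its probe (ILMN_2757232) read 1035, 913, 976 and 814 in FO and 862, 943, 489 and 762 in MO. Young mice read 867, 747, 966 and 822 in FY and 817, 886, 876 and 823 in MY, and adults lay between 684 and 857 in FA and between 705 and 801 in MA. FO and MO overlapped through the upper MO mice, and old male 3, at 489, was far below every other mouse (the next lowest of the 24 read 684). FO against MO gave 0.33 (95% interval 0.045 to 0.61, adjusted p = 0.433) by limma, with an unadjusted p of 0.0248. Without old male 3 it fell to 0.13 (adjusted p = 0.752), and without old males 1 and 3 it was 0.13 (adjusted p = 0.853). From young to old Aqp4 differed by 0.14 (95% interval -0.15 to 0.42, adjusted p = 0.973) in females and by -0.20 (95% interval -0.48 to 0.086, adjusted p = 0.603) in males, and without both old males the male value was -0.0037 (adjusted p = 1). In the order of group means (FO, FY, MY, FA, MO, MA) each neighbour overlapped the next.

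Gja1 was the steadiest member. Its probe (ILMN_1244291) read 3593, 3285, 3436 and 3141 in FY, 3063, 3263, 3268 and 3421 in FA and 3338, 3365, 3385 and 3161 in FO. In males it read 3531, 3170.2, 3304 and 3179.5 in MY, 3278, 3230.3, 3641 and 3338 in MA and 3403, 3399.6, 3210.3 and 3263 in MO. All 24 mice lay within 1.19-fold of one another, and the highest group mean, 3372 ± 185 in MA, was 1.04 times the lowest, 3254 ± 147 in FA (SD, n = 4). Old against young over both sexes was -0.0051 (95% interval -0.087 to 0.077, adjusted p = 0.981) by limma, and females against males over all ages was -0.0084 (95% interval -0.075 to 0.058, adjusted p = 0.965). In percent, the first interval lies between -5.85% and 5.47% and the second between -5.08% and 4.14%, the narrowest intervals of any member in these 2 comparisons. Within a sex they were wider, between -9.05% and 6.79% for FO against FY and between -7.02% and 9.18% for MO against MY.

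Aldh1l1 came closest to a change with age. The probe ILMN_2703392 read 113, 115, 108 and 124 in FY, 115, 123, 132 and 133 in FA and 125, 128, 147 and 129.6 in FO. In males it read 113, 119, 114 and 108 in MY, 101, 142, 122 and 121 in MA and 140.3, 128, 171 and 122 in MO. Every FO mouse was above every FY mouse and every MO mouse above every MY mouse, and the means went from 115 ± 6.88 to 132 ± 9.87 in females and from 114 ± 4.81 to 140.3 ± 22.1 in males (SD, n = 4). Among the 11 member probes 1 did not overlap between FO and FY, where 5.37% of kept probes did not, and this probe is the 1 that did not in either sex in the same direction, where 0.681% of kept probes did not. Old against young over both sexes was 0.25 (95% interval 0.091 to 0.41, adjusted p = 0.131) by limma, an interval between 6.51% and 32.8%, with an unadjusted p of 0.00352. It was 0.21 (95% interval -0.019 to 0.43, adjusted p = 0.806) in females and 0.29 (95% interval 0.069 to 0.52, adjusted p = 0.294) in males, and the male difference was 0.19 (adjusted p = 0.638) without old male 3 and 0.14 (adjusted p = 0.904) without old males 1 and 3. The summed astrocyte markers were also higher in MO than in MY, and their part in this difference was not tested.

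The other Aldh1l1 probes gave smaller differences in the same direction over both sexes. ILMN_3100276 averaged 114 ± 11.8 in FY against 129 ± 21.1 in FO, while in males the values were 117 ± 9.52 and 128 ± 19.3 (SD, n = 4), and old against young was 0.15 (95% interval -0.039 to 0.33, adjusted p = 0.582) by limma. ILMN_2706906 went from 121 ± 12.0 to 121 ± 19.7 in females and from 106 ± 6.14 to 128 ± 24.2 in males, and old against young was 0.12 (95% interval -0.075 to 0.32, adjusted p = 0.694). The 3 probes varied together over the 24 arrays, with r between 0.64 and 0.75, so they are not 3 independent measurements. Old male 3 was the highest mouse for 2 of them, at 171 and 161. Without old males 1 and 3 the old against young differences were 0.17 (adjusted p = 0.468) for ILMN_2703392, 0.06 (adjusted p = 0.965) for ILMN_3100276 and 0.02 (adjusted p = 0.993) for ILMN_2706906.

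Sox9 was highest in young females. Its probe (ILMN_3007428) read 169, 178, 238 and 178 in FY, 186, 138, 139 and 159 in FA and 159.6, 161, 172 and 149.5 in FO. It read 148, 184, 163 and 126 in MY, 144, 127, 168 and 152 in MA and 148, 146, 148 and 171 in MO. The top FY mouse, at 238, was well above the other 3, and FY overlapped FA, FO and MY. FY against MY was 0.30 (95% interval 0.035 to 0.56, adjusted p = 0.716) and FA against FY was -0.29 (95% interval -0.55 to -0.027, adjusted p = 0.41) by limma, with unadjusted p-values of 0.028 and 0.0319. From young to old the differences were -0.23 (95% interval -0.50 to 0.027, adjusted p = 0.825) in females and -0.0084 (95% interval -0.27 to 0.25, adjusted p = 0.986) in males. Without the top FY mouse, FY against MY was 0.19 (adjusted p = 1), FA against FY was -0.18 (adjusted p = 1) and FO against FY was -0.12 (adjusted p = 0.996).

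**Figure D2:**
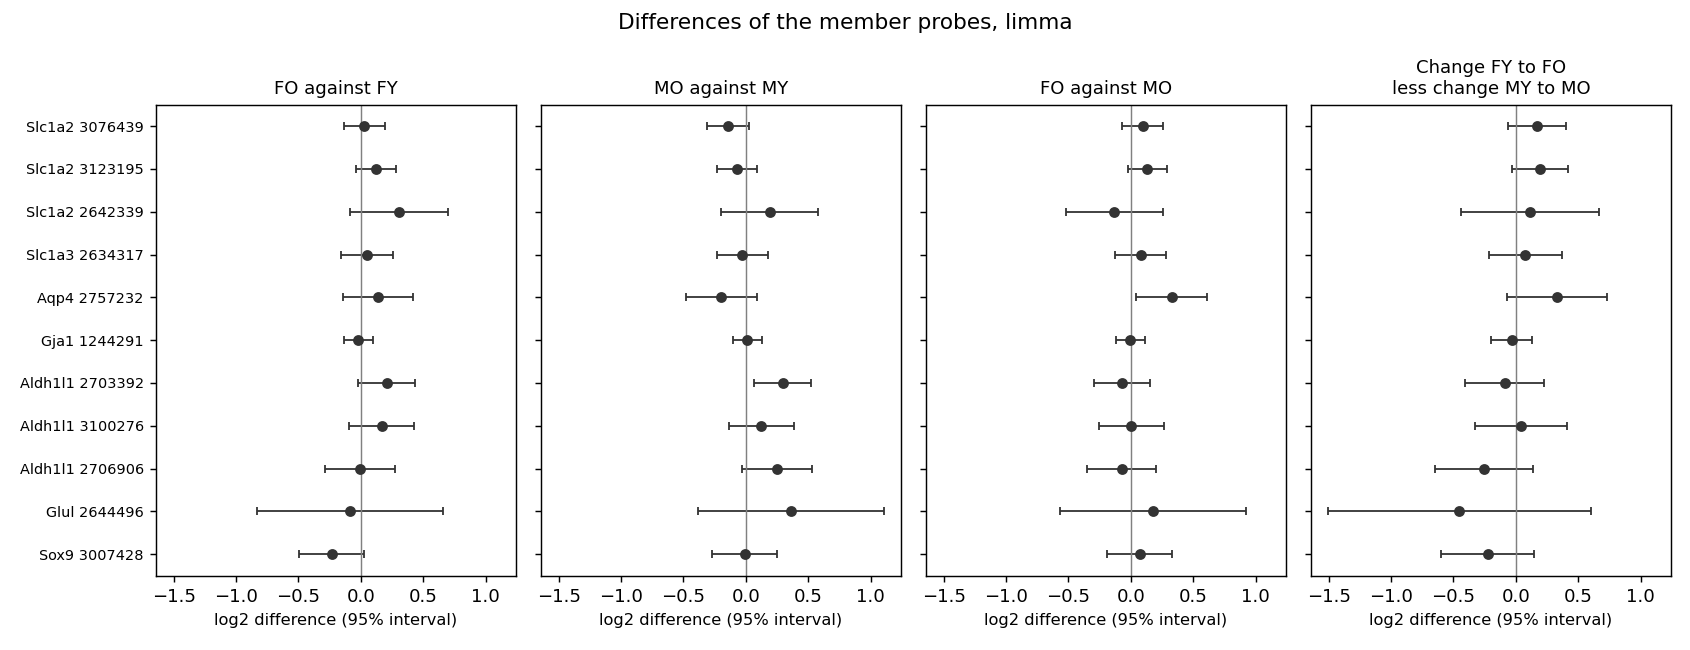
Log2 differences of the 11 kept member probes (points) with 95% intervals from limma (lines) for FO against FY, MO against MY, FO against MO and the difference of the 2 aging changes; rows are probes, named by gene and probe number. The Gja1 intervals are the shortest and the Glul intervals the longest, and the intervals that leave out 0 are those of Aldh1l1 ILMN_2703392 in MO against MY and Aqp4 in FO against MO, neither of which passed after adjustment.

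Between the sexes over all ages the 11 differences were small, from -0.023 for Aldh1l1 ILMN_3100276 to 0.15 for Sox9, with a median of 0.02 beside 0.01 over all kept probes. The lowest adjusted p was that of Sox9, 0.15 (95% interval -0.0049 to 0.30, adjusted p = 0.506) by limma. In the 3 tests of whether aging differed between the sexes no member probe passed (lowest adjusted p = 0.484 by limma), and 0% of all kept probes did. An unadjusted p under 0.05 was seen only for the dim Slc1a2 probe from young to adult, with 1 MA mouse under 16. For all kept probes that unadjusted share was taken only over the 16 comparisons together, at 7.22%. The median absolute difference of the members was 0.12 for old against young over both sexes beside 0.08 over all kept probes. On the signed scale the medians were 0.02 and -0.02, with 7 member probes above 0 and 4 below.

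The spread between mice of 1 group set these intervals, and it differed between the members by up to 8.52-fold. The SD within groups on the log2 scale was 0.066 for Gja1, lower than in all but 0.345% of kept probes and all but 2.18% of the 1190 probes in its class of mean intensity (10 classes of equal size). It was 0.094 and 0.11 for the first 2 Slc1a2 probes, 0.14 to 0.19 for Aldh1l1, 0.15 for Slc1a3, 0.18 for Sox9, 0.21 for Aqp4 and 0.27 for the dim Slc1a2 probe, where the median of all kept probes was 0.19. For Glul it was 0.56, above 98.3% of all kept probes and above 98.0% of those in its class of intensity. The 2 uptake carriers and the enzyme that follows them in the same path were thus measured with very different precision.

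**Figure D3:**
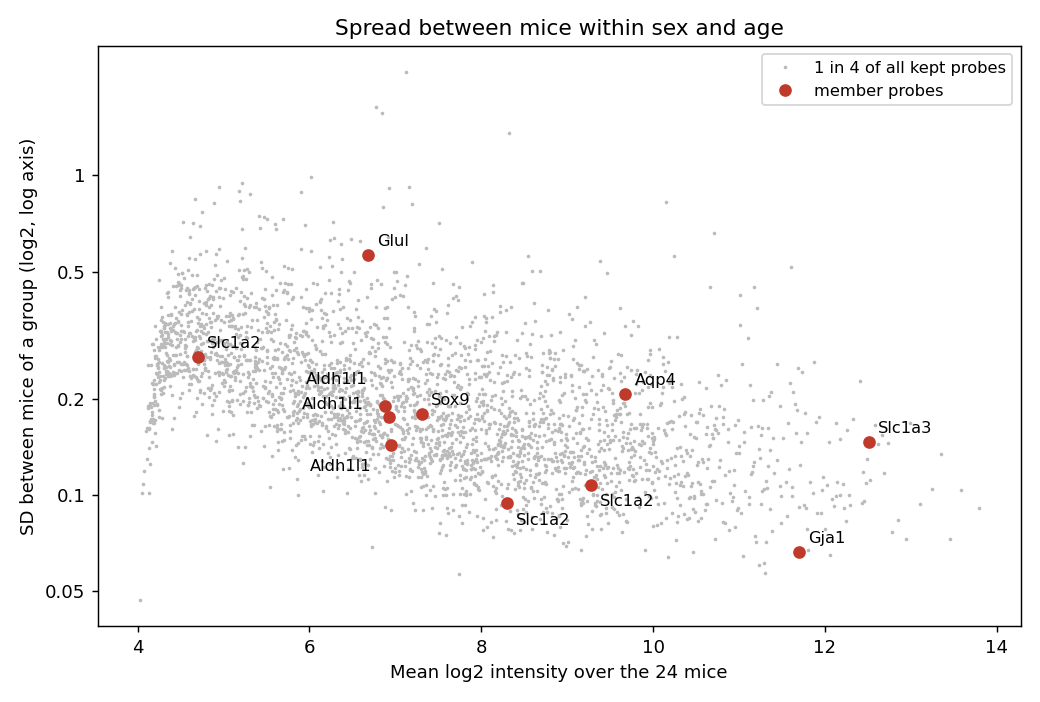
SD between mice of a group (log2 intensity, log axis) against mean log2 intensity for 1 in 4 of the kept probes (grey) and for the 11 kept member probes (red, named). Gja1, at 0.066, lies at the lower edge and Glul, at 0.56, at the upper edge of probes of like intensity.

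The members did not rise and fall together over the mice. With 1 probe a gene, the 21 pairs of the 7 measured genes had Pearson r between -0.44 and 0.51 over 24 arrays, with a median of -0.09 and 10 of 21 above 0. The 2 pairs with an unadjusted p under 0.05 in the permutation test (two-sided, 100000 resamples) were Glul with Sox9 (r = 0.51, p = 0.0105, adjusted over 21 pairs 0.22, Spearman's rho 0.34, p = 0.105) and Slc1a3 with Sox9 (r = -0.44, p = 0.0314, adjusted 0.33, rho -0.45, p = 0.0269). No pair passed after adjustment by either measure, and the lowest adjusted p for rho was 0.538. Glul with Sox9 gave 0.42 in females and 0.61 in males (12 mice each), 0.50 after centring on the group means and 0.42 without the 2 mice farthest from the median Glul level. Slc1a3 with Sox9 gave -0.51 in females, -0.41 in males, -0.45 after centring and -0.52 without the 2 mice farthest from the median Slc1a3 level. Aqp4 with Aldh1l1 was -0.37 over all mice and 0.12 without old males 1 and 3, so its negative value rested on them.

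**Figure D4:**
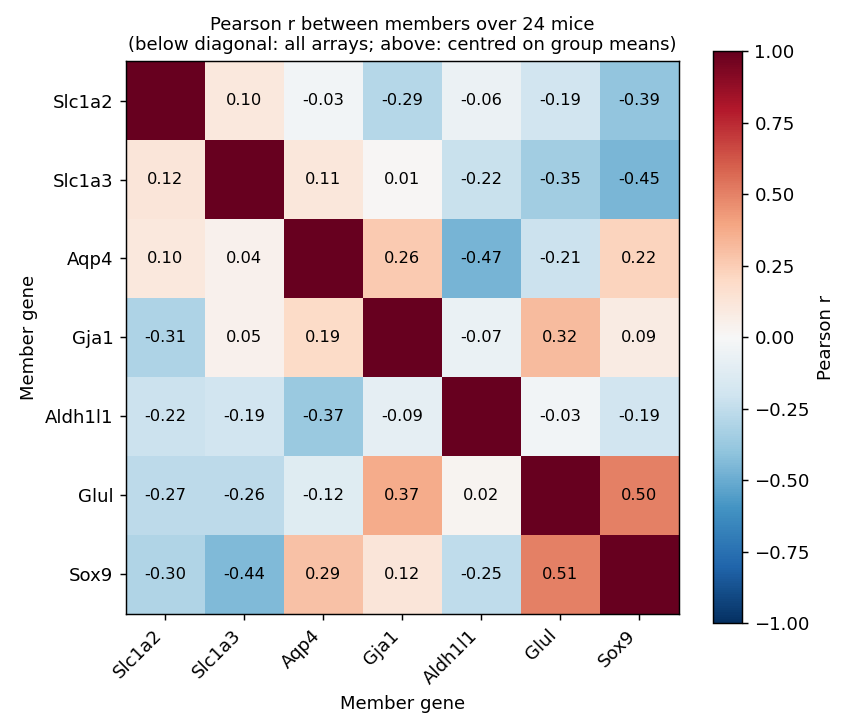
Pearson r between the 7 measured members over the 24 arrays (1 probe a gene), for log2 intensities below the diagonal and for values centred on the 6 group means above it; the colour scale runs from -1 to 1. Values run from -0.47 to 0.51 with no block of members that vary together, and the highest cell is Glul with Sox9.

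The genes whose variation was most like each member's were found after centring on the 6 group means over 24 arrays, as a description, since arrays share their RNA amount and makeup over all genes. They were Clgn (r = 0.76), Tmem161a (0.74) and Adat2 (0.71) for Slc1a2, and Napg (0.84), Zfp282 (0.83) and Nras (0.83) for Slc1a3. For Aqp4 they were Slc26a4 (0.81), H2bc6 (0.81) and Tspan6 (0.80), and for Gja1 they were Nnmt (0.81), Elapor1 (0.79) and Trhr (0.77). Man2a1 (0.89), Zfp692 (0.85) and Camk1 (0.84) were closest to Aldh1l1, and Smad5 (0.86), Ascc1 (0.82) and Prps2 (0.82) to Sox9. Glul stood apart here too, with Ppip5k2 (0.91), Slc12a5 (0.91) and Minpp1 (0.91) closest, and 150 kept probes had r above 0.8 with it, against between 0 and 10 for the other members. None of the 3 genes closest to any member was another astrocyte gene of the lists used here.

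Most of the genes around the members did not pass the test with age either. Of 202 related genes in 10 lists 125 were kept, and 8 of them passed the test for old against young over both sexes, 6 higher and 2 lower (all kept probes 115 higher and 36 lower, 1.27% in all). Of these 8, 5 came from the list of reactive astrocytes, whose 17 kept genes had a median of 0.20, beside -0.02 over all kept probes. These lists were drawn up with earlier results of these data known, so the counts are a description.

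Among reactive astrocyte genes C4b, a complement component that other glia also make, rose most. It read 147, 186, 165 and 171 in FY and 774, 618, 674 and 876 in FO, and 139.7, 129.9, 134 and 156 in MY and 350.4, 551, 381 and 593 in MO, with no overlap in either sex. Old against young was 1.92 ± 0.12 (SE, adjusted p = 1.58e-09) by limma. Osmr, the oncostatin M receptor, rose by 0.70 ± 0.10 (SE, adjusted p = 0.00019), Aspg, an asparaginase, by 0.77 ± 0.15 (SE, adjusted p = 0.00455), Cd44, a hyaluronan receptor, by 0.57 ± 0.11 (SE, adjusted p = 0.00686) and Vim, the filament protein vimentin, by 0.50 ± 0.11 (SE, adjusted p = 0.0188). By sex, FO against FY passed for Osmr, at 0.98 ± 0.14 (SE, adjusted p = 0.000253), Aspg, at 1.02 ± 0.21 (SE, adjusted p = 0.0124), and Cd44, at 0.88 ± 0.16 (SE, adjusted p = 0.00366). MO against MY did not pass and gave 0.42 ± 0.14 (SE, adjusted p = 0.255), 0.53 ± 0.21 (SE, adjusted p = 0.324) and 0.25 ± 0.16 (SE, adjusted p = 0.564), and the tests of the difference in aging between the sexes did not pass either (adjusted p = 0.841, 0.851 and 0.841 by limma). Aspg was above 16 in 1 of 4 FY mice and Cd44 in 1 of 4, so the fitted values understate both. The floor also narrows the spread of their FY values, which enters the p-values. Cd44 was kept only through FO, and Aspg only through FO and MO, so their calls for old mice are a description. Vim passed within neither sex by limma, at 0.61 (adjusted p = 0.087) in FO against FY and 0.39 (adjusted p = 0.343) in MO against MY. Serpina3n, a secreted protease inhibitor, rose 2.30-fold in FO against FY (adjusted p = 0.0366). In MO against MY its log2 difference was 0.20 (adjusted p = 0.811), or 0.65 (adjusted p = 0.255) without old male 3. Over both sexes it was 0.70 ± 0.20 (SE, adjusted p = 0.0881), where old male 3 read 223 and the other old males 616 to 910.0. Without old male 3 the difference over both sexes was 0.92 (adjusted p = 4.21e-05), and without old males 1 and 3 it was 1.01 (adjusted p = 1.92e-05). With 1 array left out, the Serpina3n call in FO against FY was lost in 10 of 24 fits (without any 1 of the 4 FY mice, FO 1, 3 or 4, FA 2, MY 1 or MY 2, adjusted p up to 0.21), that of Aspg in 5 (without FY 1, 2 or 3, FO 3 or FO 4, adjusted p up to 0.0736), and the Vim call over both sexes was lost without FO 4 (adjusted p = 0.0559). Microglial markers rose in the same old mice (8 of 11 kept genes called for old against young), and their part in these values was not tested.

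**Figure D5:**
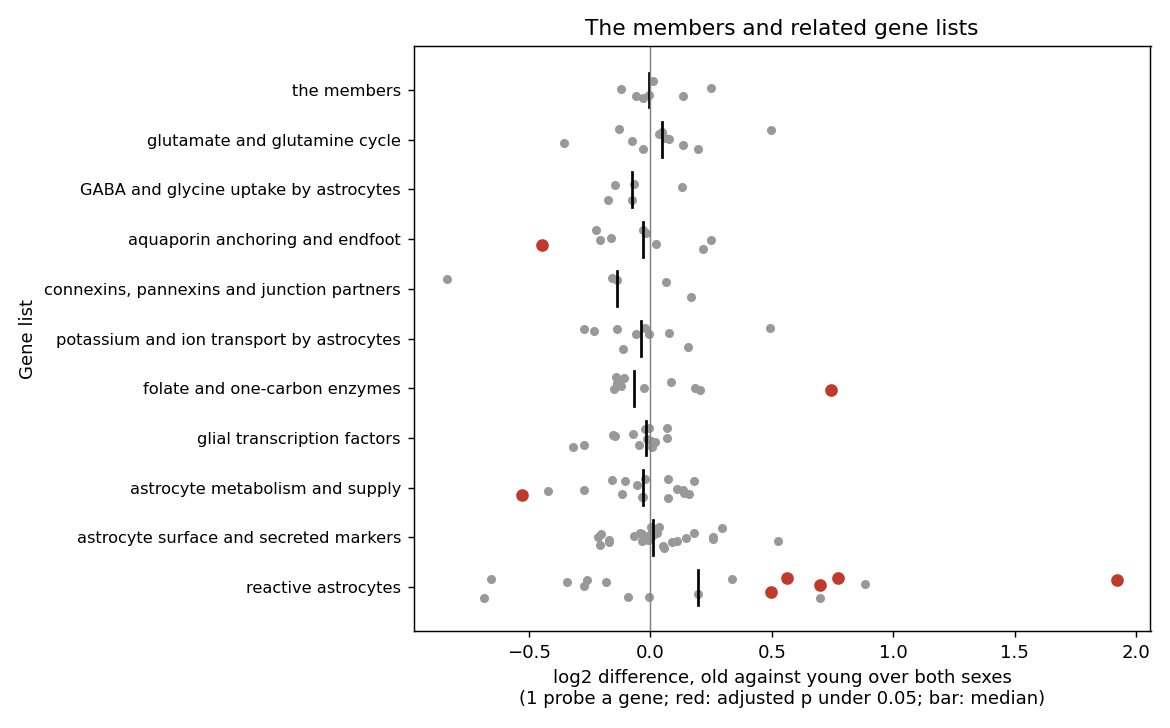
Log2 difference of old against young mice over both sexes (limma, 1 probe a gene) for the 7 measured members and the kept genes of the 10 related lists; points are genes, red where the adjusted p was under 0.05, and the black bar is the list's median. The members lie between -0.12 and 0.25 with none red, and the reactive astrocyte genes reach 1.92 (C4b).

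Aldh1l2, the mitochondrial counterpart of Aldh1l1, was the 1 called gene of the folate list, and none of its other 9 kept genes was called. It read 34.2, 30.2, 31.3 and 34.0 in FY, 36.6, 40.2, 36.8 and 35.8 in FA and 75.2, 55.0, 75.6 and 60.4 in FO. In males it read 41.9, 34.9, 38.4 and 35.2 in MY and 53.1, 63.4, 31.6 and 67.0 in MO, where old male 3 was the lowest mouse. FO lay above FY and FA without overlap, and the difference was 1.03 ± 0.17 (SE, adjusted p = 0.00201) for FO against FY by limma. For MO against MY it was 0.46 ± 0.17 (SE, adjusted p = 0.308), and 0.80 (adjusted p = 0.0471) without old males 1 and 3 and 0.70 (adjusted p = 0.0494) without old male 3 alone.

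In the list of aquaporin anchoring and endfoot genes Dtna, which codes for the dystrophin-associated protein dystrobrevin alpha, was the 1 of 9 kept genes called, lower in old mice by limma at -0.45 ± 0.10 (SE, adjusted p = 0.0202). It has 4 kept probes, and the other 3 gave -0.26, -0.14 and -0.02 and were not called. Among 17 kept genes of astrocyte metabolism Slc7a11, the cystine and glutamate exchanger, was the 1 called, at -0.53 ± 0.12 (SE, adjusted p = 0.0231). Leaving out 1 array at a time, the Dtna call was lost in 4 of 24 fits (without FY 2, FO 3, FO 4 or MY 2, adjusted p up to 0.0603) and the Slc7a11 call in 8 (without FY 3 or 4, FO 3 or 4, MY 1, 2 or 3, or MO 4, adjusted p up to 0.0634). Both calls were also lost without old males 1 and 3, where Dtna gave -0.34 (adjusted p = 0.166) and Slc7a11 gave -0.54 (adjusted p = 0.0668).

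The remaining lists held no call in any of the 16 comparisons. In the glutamate and glutamine cycle list, with 11 kept genes and a median of 0.05, the genes farthest from 0 for old against young were Slc17a6, a vesicular glutamate transporter of neurons, at 0.50 ± 0.25 (SE, adjusted p = 0.464), and Slc38a5, a glutamine carrier, at -0.36 ± 0.18 (SE, adjusted p = 0.461) by limma. Old male 3 read 1456 for Slc17a6 and the other 23 mice 221 to 935, and without old male 3 the Slc17a6 difference was 0.30 (adjusted p = 0.729). Among the connexins and their partners (5 kept, median -0.14) Gjb2, connexin 26, which meningeal cells also make, was -0.84 ± 0.25 (SE, adjusted p = 0.126) and Gjd2, the neuronal connexin 36, 0.17 ± 0.11 (SE, adjusted p = 0.626), or 0.085 (adjusted p = 0.851) without old male 3. Gjb2 passed, in the same direction, with MY 4 left out (adjusted p = 0.0374). Meningeal markers were lower in the old mice too, with a median of -0.88 over 8 kept genes, none of them called, and their part in the Gjb2 value was not tested.

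Potassium and ion transport genes (10 kept, median -0.04) ranged around 0, with Slc14a1, the urea transporter, at 0.49 ± 0.15 (SE, adjusted p = 0.124) and Kcnk2, a potassium channel, at -0.27 ± 0.14 (SE, adjusted p = 0.474), or -0.17 (adjusted p = 0.609) without old male 1. For Slc14a1 FO against FY was 0.87 ± 0.21 (SE, adjusted p = 0.0545) by limma. Without old male 3 Slc14a1 passed, at 0.62 (adjusted p = 0.00974) over both sexes and with an adjusted p of 0.00799 in FO against FY, and FO against FY also passed without MO 1 (adjusted p = 0.0352) or MO 4 (adjusted p = 0.0399). Without both old males 1 and 3 the difference over both sexes was 0.57 (adjusted p = 0.0347), and FO against FY passed as well (adjusted p = 0.0074). Of the genes for uptake of GABA and glycine (5 kept, median -0.07) the largest differences were those of Gldc, of the glycine cleavage system, -0.17 ± 0.071 (SE, adjusted p = 0.315) and -0.11 (adjusted p = 0.559) without old male 3, and Aldh5a1, a GABA-degrading enzyme, -0.14 ± 0.11 (SE, adjusted p = 0.699). Glial transcription factors (14 kept, median -0.02) were led by Id3, -0.32 ± 0.12 (SE, adjusted p = 0.292), and Hes5, -0.27 ± 0.23 (SE, adjusted p = 0.714), where the other kept Hes5 probe gave 0.03 and the first gave -0.46 (adjusted p = 0.658) without old males 1 and 3. The surface and secreted markers (27 kept, median 0.01) were led by Itih3, 0.53 ± 0.20 (SE, adjusted p = 0.265), and Fam107a, 0.30 ± 0.15 (SE, adjusted p = 0.457). The Itih3 difference was 0.35 (adjusted p = 0.48) without old male 3 and passed without old male 1, at 0.68 (adjusted p = 0.0494), and that of Fam107a was 0.16 (adjusted p = 0.899) without both.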

How the data were processed

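The values analysed are the deposited normalized probe intensities of 24 Illumina mouse BeadChip arrays, which had been average-normalized by the authors, with background subtracted, in GenomeStudio (2011.1 in the submitters' processing notes). They are linear, 22.4% lie below 0, no 2 arrays hold identical values, and the genome build was not given in the sources used here. A further deposited table of unnormalized signal and detection p-values has 48 columns whose names match no sample label, and it was not used. Because the subtraction leaves values around 0, intensities were floored at 16 before log2, which makes differences of dim probes smaller than they are.

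Probes were named from the platform annotation (23978 of 25697 have 1 gene symbol and 1719 have none), with symbols updated through Entrez IDs to RefSeq. Kept probes read over 16 in all mice of some group. Groups come from the sample titles. limma 3.58.1 in R 4.3.3 fitted 1 model over the 6 groups with empirical Bayes moderation and an intensity trend, and p-values were adjusted by Benjamini-Hochberg over the 11901 kept probes, at 0.05. Nothing in the labels ties replicate numbers to litters or chips, and the p-values of limma set group differences against the moderated spread between these mice. For lists and correlations 1 probe per gene was used, that with the highest mean. Permutation p-values (NumPy 2.4.6) used 100000 resamples. The study's procedure was run on the same log2 values and kept probes, without its filter on detection p-values. Named related genes are those called in any of the 16 comparisons, and otherwise the 2 of a list with the largest old against young difference. The members and lists were chosen with earlier results of these data known. Alternatives were quantile normalization, median centring, other floors and filters, fits on the compared groups alone, no trend, array weights, a replicate block, and leaving out arrays. The model was tested on simulated data. The number of arrays limits the precision.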

Additional observations from a re-analysis of the deposited data

Results flagged for a closer look

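In 4 of 66 sets of 4 mice (11 probes in 6 groups) 1 mouse lay far from the other 3 by Dixon's test, where chance gives about 1 in 20 such sets. FO replicate 4 read 708 for Slc1a2 ILMN_3076439, while the others of its group read 598 to 603. MY replicate 2 read 5270.1 for Slc1a3, below 5795 to 5830.1 in the others. For Sox9, FY replicate 3 read 238 against 169 to 178, and MO replicate 4 read 171 against 146 to 148. None of these differences between single mice changed a call, since no member was called under any fit that left out 1 array, in the 6 comparisons of age and sex that were refitted.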

How the results depend on the processing

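No member probe was called by limma under any of 34 alternatives in the 6 comparisons followed (FO against FY, MO against MY, old against young, FO against MO, females against males and the difference in aging), and the lowest adjusted p was 0.0661, for Aldh1l1 ILMN_2703392 in old against young under quantile normalization. The range of that p was 0.0661 to 0.468 and of its difference 0.17 to 0.28. Of the 66 uncalled member differences 35 kept their sign throughout, and 124 of 2232 values had the other sign. Only the study's procedure, as run here, moved a count of member calls, to 1 for ages within a sex, and to 0 again with its factor p adjusted. With 1 array left out, each count of member calls was 0 in all 24 fits, and related-list genes called for old against young lay between 5 (without FO replicate 4) and 11 (without MO replicate 3), against 8. The replicate block gave 0 member calls and 10 related genes. Calls over all kept probes were not counted in these refits, so the shifts cannot be read as particular to the related lists. Same-numbered mice did not deviate together on average (mean r between -0.04 and 0.04 by number). Single pairs ranged widely, from -0.37 to 0.55 for replicate 3, beside -0.55 to 0.49 between different numbers. A mean over pairs cannot decide whether some arrays share a batch. Quantile normalization moved none of 66 group levels by more than 1 SD, and the median r between members lay between -0.13 and -0.02 with 1 array left out. The floor of 32 and the stricter filter remove the dim Slc1a2 probe. Intensities near the floor bound what Slc1a2 ILMN_2642339, Aspg and Cd44 can show.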
